A study of Cucurbita pepo with 12 samples.

Results

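The pollen transcriptome of the zucchini cultivar Costata Romanesco (Cucurbita pepo) was compared with the 2 vegetative organs sequenced beside it, root and leaf. Members were chosen by organ label: 4 pollen libraries stood against 4 root and 4 leaf libraries, which are all 12 libraries of the series. Plants grew for 60 days, to flowering, in potted soil that received no copper, CuO nanoparticles or bulk CuO at 100 mg/kg, or CuSO4 pentahydrate at 320 mg/kg, about 80 mg/kg of copper in each treated pot. Each organ had 1 library for each of these 4 treatments. A library of another treatment therefore served as the replicate of an organ, and a difference between treatments within an organ has no replicate check. The sources used here do not say whether organs of 1 treatment came from the same plants or whether plants were pooled.

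Pollen grains are the male gametophytes of seed plants. They store messenger RNA and protein made during maturation and use them to hydrate, germinate and grow a pollen tube. In flowering plants that have been studied in detail, mature pollen holds transcripts of fewer genes than leaves or roots, and many of its abundant transcripts are found in few other tissues. In bulk RNA, fewer cells that make a transcript and less of it per cell cannot be told apart.

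Levels are in FPKM, read numbers scaled to transcript length and library size, for 27868 genes. All 12 libraries listed 1436 of them at 0. A listed 0 can be a failed estimate. Summed FPKM was 666570 to 698915 in pollen, 535565 to 555797 in root and 552230 to 563463 in leaf. Total reads are unknown here. From the spacing of low values, depth was put, relative to the root control library, at 0.637 to 0.745 in pollen, 0.862 to 0.933 in leaf and 0.915 to 1.10 in root. Genes are printed by the IDs of the table, because none of these IDs occurs in the gene table used here, so no gene function is given and the organ labels were not checked against markers.

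Pollen used far fewer genes than either vegetative organ. Breadth was counted as the number of genes at or above 1 FPKM. It was 10309 in control pollen, 10967 under CuO nanoparticles, 11446 under bulk CuO and 11569 under CuSO4. The 8 vegetative libraries ran from 19676 (leaf under nanoparticles) to 20957 (leaf under bulk CuO), so every pollen library lay below every root and leaf library. The means were 11073 ± 572 genes in pollen (SD, n = 4), 20671 ± 153 in root (SD, n = 4) and 20143 ± 605 in leaf (SD, n = 4). The difference between pollen and the vegetative libraries was -9334 genes, with p = 0.0123 in an exact two-sided permutation test within treatments and 0.0148 after Benjamini-Hochberg adjustment over 6 measures. This is the smallest p that the 81 arrangements can give. Pollen was lower in 4 of 4 treatments, with differences from -8830 genes under CuSO4 to -9818 in the control.

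By the estimate from low values, which is less sure between organs than within them, pollen libraries were also shallower than the others. With thresholds set so that each library needed the same number of reads per kilobase, a setting chosen after the data were seen, pollen had 10355 to 12129 genes and the vegetative libraries 20352 to 22070. These thresholds were lower in the deeper libraries, at 0.578 to 0.740 FPKM in root and leaf and 0.856 to 1 FPKM in pollen. The setting can therefore only add genes to a library, and it cannot show how far shallower depth lowered pollen breadth. Genes listed at 0 numbered 8594 to 10666 in pollen, 3496 to 3839 in root and 3948 to 4584 in leaf. Genes above the threshold were also at lower levels in pollen, with a median of 4.94 to 5.40 FPKM against 9.27 to 10.6 FPKM in the vegetative libraries.

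The gap in breadth depended on the threshold. The difference between pollen and the vegetative libraries was -6182 genes at 0.1 FPKM, -9334 at 1 FPKM, -8859 at 5 FPKM and -6256 at 10 FPKM, and its sign turned at the highest thresholds. At 10 FPKM, pollen had 3726 to 3998 genes, root 9777 to 10521 and leaf 9834 to 10893. At 100 FPKM pollen, with 865 to 904 genes, lay within the range of root (839 to 985) and above every leaf library (719 to 815). Against root and leaf together the difference was 38.6 genes, with an exact permutation p = 0.481. At 1000 FPKM pollen held 178 genes in the control, 167 under nanoparticles, 166 under bulk CuO and 169 under CuSO4, while root held 21 to 33 and leaf 29 to 48. The last threshold was added after the data were seen; the difference was 138 genes, with p = 0.0123 in the exact permutation test, again the smallest possible. Put by rank, the 1000th gene stood at nearly the same level in pollen (79.0 to 86.7 FPKM) as in root (87.2 to 98.7 FPKM) and leaf (77.7 to 87.2 FPKM). The 100th gene was far higher in pollen, at 1488 to 1646 FPKM against 443 to 489 FPKM in the vegetative libraries, and the 10000th was far lower, at 1.10 to 1.52 FPKM against 9.67 to 11.2 FPKM.

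**Figure D1:**
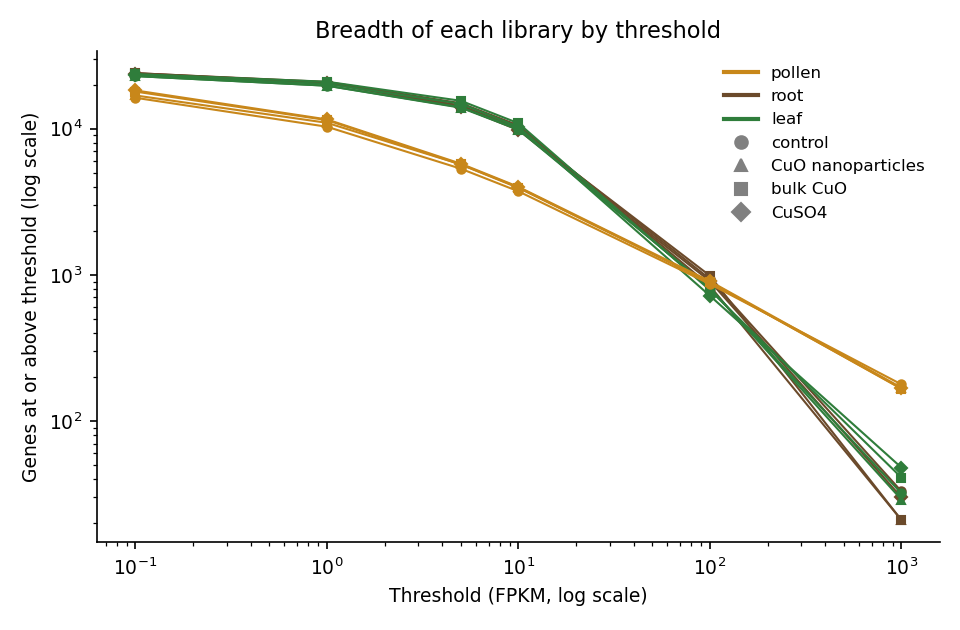
Number of genes at or above each FPKM threshold (both axes logarithmic) in each of the 12 libraries, 1 line a library, coloured by organ, with a symbol for each treatment. Pollen lines lie below the others up to 10 FPKM, and among root and above leaf at 100 FPKM. They end at 166 to 178 genes at 1000 FPKM, above the 21 to 48 genes of root and leaf.

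Transcripts of pollen were concentrated in fewer leading genes. The 100 leading genes of a library held 40.3% of summed FPKM in control pollen, 37.4% under nanoparticles, 37.7% under bulk CuO and 36.4% under CuSO4. Root libraries had 16.0% to 18.7% and leaf libraries 20.7% to 24.9% in their own leading 100, so the groups did not overlap. The difference of 18.3 percentage points between pollen and the vegetative libraries had an exact permutation p = 0.0123 (adjusted 0.0148), with pollen higher in 4 of 4 treatments. The leading 1000 genes held 82.8% to 85.2% in pollen, 43.3% to 48.1% in root and 46.6% to 49.8% in leaf. Such shares do not change when a whole library is multiplied by a factor.

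The very first ranks did not separate pollen from leaf. The single leading gene held 1.21% to 1.31% of summed FPKM in pollen, within the 1.20% to 1.62% of leaf and above the 0.887% to 1.07% of root. The leading 10 genes held 8.65% in control pollen, 7.97% under nanoparticles, 8.22% under bulk CuO and 7.76% under CuSO4. Leaf had 6.98% to 8.78% and root 4.11% to 5.37%, so pollen overlapped leaf and stood above root. Against both organs together the difference was 1.87 percentage points, with an exact permutation p = 0.160, which does not pass the threshold. Once the 10 leading genes of each library were left out, the next 10 held a larger share of the remaining FPKM in pollen. The difference was 2.73 percentage points, with an exact permutation p = 0.0123. Ranks 11 to 100 held 28.7% to 31.6% in pollen against 11.3% to 16.5% in the vegetative libraries, and ranks 101 to 1000 held 45.0% to 46.3% against 24.9% to 29.3%. All genes beyond rank 5000 together held 2.34% to 3.16% in pollen and 21.4% to 25.5% in root and leaf.

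**Figure D2:**
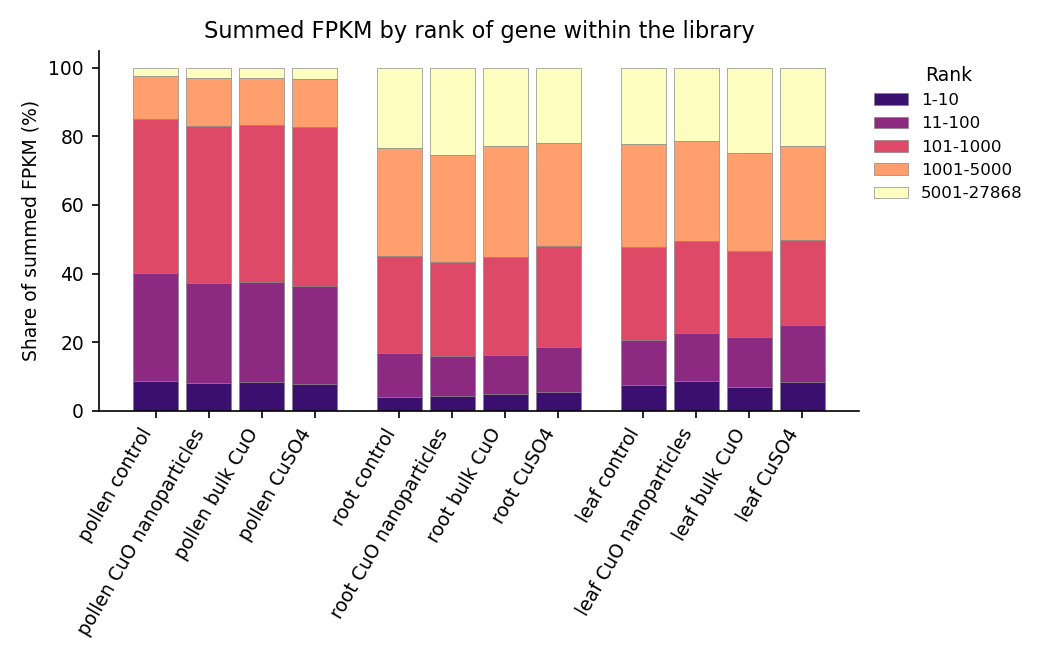
Share of summed FPKM (%) held by genes of successive ranks in each library, 1 bar a library, grouped by organ. The band of ranks 1 to 10 is as wide in pollen as in leaf (7.76% to 8.65% against 6.98% to 8.78%), the bands of ranks 11 to 1000 are wider in pollen than in any root or leaf library, and the band beyond rank 5000 shrinks to at most 3.16%.

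The number of leading genes needed to reach 50% of summed FPKM summarised this concentration. It was 150 in control pollen, 170 under nanoparticles, 169 under bulk CuO and 177 under CuSO4, against 1018 to 1482 in the vegetative libraries. The mean was 166.5 ± 11.6 genes in pollen (SD, n = 4) and 1211 ± 159 in root and leaf (SD, n = 8), a 7.27-fold difference with an exact permutation p = 0.0123 (adjusted 0.0148). To reach 90%, pollen needed 1588 to 1925 genes and the vegetative libraries 8993 to 10332.

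Evenness, the degree to which transcripts are spread equally over genes, was lower in pollen. The effective number of genes is the exponential of Shannon entropy, which is the number of equally abundant genes that would give the same entropy. It was 1070 in control pollen, 1240 under nanoparticles, 1231 under bulk CuO and 1284 under CuSO4. Root lay at 5955 to 7169 and leaf at 5032 to 5978. The vegetative mean of 6005 was 4.98 times the pollen mean of 1206, with an exact permutation p = 0.0123 (adjusted 0.0148). The inverse Simpson index, which weights leading genes more, was 407 to 478 in pollen, 746 to 1005 in leaf and 1367 to 1864 in root.

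Evenness was also lower relative to the number of genes listed above 0. The Pielou index divides Shannon entropy by the highest value possible for the number of genes above 0. It was 0.715 in control pollen, 0.728 under nanoparticles, 0.723 under bulk CuO and 0.725 under CuSO4, while leaf had 0.847 to 0.862 and root 0.862 to 0.879. The difference of -0.139 between pollen and the vegetative libraries had an exact permutation p = 0.0123 (adjusted 0.0148), and every pollen library lay below every other library. The Gini coefficient, 0 for equal levels and 1 for all transcripts in 1 gene, was 0.947 to 0.956 in pollen and 0.752 to 0.790 in the vegetative libraries.

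Single genes were compared with limma on log2(FPKM + 1), with treatment as a block. Of 23751 genes whose mean reached 1 FPKM in an organ, 16998 (71.6%) were called at an adjusted p under 0.05 and a log2 difference of at least 1. Of all genes tested, 2571 (10.8%) were higher and 14427 (60.7%) lower in pollen. Pollen and vegetative libraries did not overlap for 17342 genes (73%), 2632 higher (11.1%) and 14710 lower (61.9%) in pollen. Among the called genes 2408 of the higher and 13720 of the lower ones did not overlap. Called genes lay at a median log2 difference of 2.97 when higher and -2.64 when lower. The filter let 12566 genes in through root or leaf alone, with a pollen mean under 1 FPKM, and 9655 of them were called lower. Through pollen alone came 986 genes, of which 880 were called higher. Of the 10199 genes that reached 1 FPKM in pollen and also in root or leaf, 1691 were called higher, 4772 lower and 3736 neither.

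The balance of directions depended on the scale. The median log2 difference over all genes tested was -1.85, against which each gene can be read. With the medians of all libraries set equal, 8037 genes were called higher and 3211 lower, so that 71.5% of the calls were higher in place of 15.1%. The shift adds 1 constant to the difference of every gene, so that 963 genes called lower on the first scale were called higher on the second. It raised faint pollen genes as well, since 1872 of the 8037 had a pollen mean under 1 FPKM. Quantile normalization, which gives every library the same distribution, called 5311 higher and 5038 lower (51.3% higher). Rescaling each library to the same summed FPKM gave 2431 higher and 15747 lower.

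**Figure D3:**
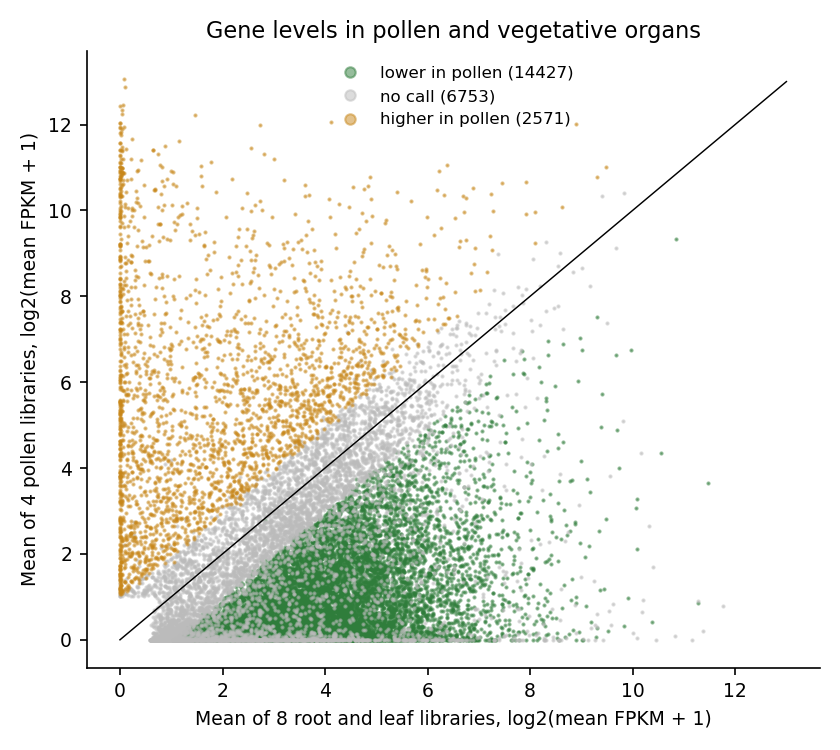
Mean level of each of the 23751 genes tested in the 8 root and leaf libraries (horizontal axis) and in the 4 pollen libraries (vertical axis), both as log2 of mean FPKM + 1, coloured by the limma call; the line marks equal levels. The 2571 genes higher in pollen reach from the left edge, where root and leaf are near 0, and the 14427 lower genes fill the area under the line.

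The genes with the largest differences in favour of pollen were also its 2 leading transcripts. Cp4.1LG07g06470 was the leading gene of each pollen library, at 9178 FPKM in the control, 8033 FPKM under nanoparticles, 8679 FPKM with bulk CuO and 8376 FPKM with CuSO4. In root and leaf it ran from a listed 0 to 0.289 FPKM, with a median of 0.0325 FPKM. Its log2 difference was 12.99 (SE 0.14, limma adjusted p = 2.07e-11), and it alone held 1.21% to 1.31% of summed FPKM in pollen. Cp4.1LG07g05480 ranked second in each pollen library, at 8052, 7145, 7705 and 7327 FPKM in the same order of treatments. Its root and leaf values ran from a listed 0 to 0.213 FPKM with a median of 0.0435 FPKM, a log2 difference of 12.80 (SE 0.13, limma adjusted p = 2.07e-11). Both genes were highest in control pollen and lowest under nanoparticles. They entered the test through pollen alone and were picked for their difference, so their p-values are no separate support for it.

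The 2 genes named as lower in pollen have the highest vegetative means among called genes whose groups did not overlap. Cp4.1LG11g07990 ranked first or second in each root library (4185 to 5547 FPKM) and stood at 124 to 1206 FPKM in leaf. In pollen it was at 3.84 FPKM in the control, 3.91 FPKM under nanoparticles, 10.2 FPKM with bulk CuO and 28.0 FPKM with CuSO4. The log2 difference was -7.36 (SE 1.22, limma adjusted p = 4.68e-04), and no pollen library reached the lowest vegetative value. Cp4.1LG11g01450 stood at 161 to 686 FPKM in root and 774 to 7558 FPKM in leaf. Its pollen values were 0.796 FPKM in the control, 0.184 FPKM under nanoparticles, 0.821 FPKM with bulk CuO and 1.47 FPKM with CuSO4, a log2 difference of -9.26 (SE 1.08, limma adjusted p = 4.38e-05). The leading leaf gene, Cp4.1LG09g03060, was at 4758 to 9092 FPKM in leaf but at most 0.786 FPKM in root. In pollen its mean was 0.734 ± 0.949 FPKM (SD, n = 4), listed at 0 under nanoparticles and highest under CuSO4. Its log2 difference of -5.89 (SE 3.60, limma adjusted p = 0.156) missed the threshold, and root alone overlapped pollen. With the 3 organs kept separate in the limma model, the same difference had an adjusted p = 5.36e-08. In this gene root and pollen lay close together and leaf stood apart. Cp4.1LG09g03060 entered the test through leaf alone, and Cp4.1LG11g01450 through root and leaf. The genes of this paragraph were picked for high values outside pollen, so their p-values are no separate support for a difference.

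Genes split by presence at 1 FPKM gave the make-up of pollen, as a description of groups defined by these same values. A common set of 7353 genes was present in all 12 libraries and held 39.4% to 40.5% of summed FPKM in pollen, 49.1% to 51.6% in root and 40.4% to 44.5% in leaf. A set of 645 genes was present in all 4 pollen libraries and in none of the 8 others. These 645 genes held 40.7% of summed FPKM in control pollen, 39.0% under nanoparticles, 40.2% under bulk CuO and 39.3% under CuSO4, about as much as the 7353 common genes. In root and leaf they held at most 0.0178%. Conversely 6490 genes present in all 8 vegetative libraries and in no pollen library held 21.3% to 25.0% in root and leaf.

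Genes at the highest pollen levels were present in root and leaf less often than genes at low pollen levels. Of 172 genes with a pollen mean of at least 1000 FPKM, 94 (54.7%) stayed under 1 FPKM in every root and leaf library and 42 (24.4%) reached it in all 8. Of 5551 genes at 1 to 5 FPKM in pollen, 219 (3.95%) stayed under 1 FPKM in all vegetative libraries and 4497 reached it in all of them. Among the 100 leading pollen genes, all with means of at least 1526 FPKM, 65 were under 1 FPKM in every vegetative library and 16 were at or above it in all 8. In the opposite direction, 47 of the 100 leading vegetative genes reached 1 FPKM in all 4 pollen libraries and 29 in none, and the pollen and vegetative values of 33 overlapped. No gene of the leading 100 of pollen had overlapping values. Over all 23751 genes tested, 73% did not overlap. Each list was picked for high values in its own group, and the vegetative list began at a lower mean of 399 FPKM. It also pools root and leaf, so a gene high in only 1 of them can overlap pollen through the other. The contrast between the lists was not tested. Presence in pollen rose with vegetative level, from 22.9% of 5819 genes at 1 to 5 FPKM to 55.1% of 817 genes at 100 to 1000 FPKM, and was 7 of 22 genes (31.8%) at 1000 FPKM and over.

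Little of the composition was common to pollen and the other organs. The share of summed FPKM that would have to move between genes to turn 1 library into another was 83.0% to 85.6% between pollen and root, 84.7% to 86.7% between pollen and leaf, and 46.8% to 55.9% between root and leaf. Lists of the 100 leading genes shared 0 or 1 gene between pollen and root, 2 or 3 between pollen and leaf, and 7 to 15 between root and leaf.

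Between treatments, the pollen libraries resembled each other more than those of root or leaf did. Their 6 pairs differed in 4.35% to 7.91% of composition, with 89 to 94 of the leading 100 genes in common. Root pairs differed in 11.5% to 24.7% and shared 51 to 84 genes, and leaf pairs differed in 8.71% to 38.2% and shared 36 to 92. The closest pollen pair was bulk CuO and CuSO4, at 4.35%, and the most distant was control and CuSO4, at 7.91%. For 3598 genes that averaged 5 FPKM or more in each organ, the median SD of log2(FPKM + 1) over the 4 treatments was 0.160 in pollen, 0.236 in root and 0.374 in leaf. With 1 library for each treatment these spreads hold treatment and library variation together and were not tested.

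Abundant genes were the steadiest in pollen and the least steady in leaf and root. The 172 genes at 1000 FPKM or more in pollen had a median SD of 0.113 on the log2 scale, and the 5551 genes at 1 to 5 FPKM had 0.244. In leaf the 34 genes at 1000 FPKM or more had a median SD of 0.990, against 0.501 at 1 to 5 FPKM, and in root 26 such genes had 0.441 against 0.311. An SD over 0.5 was found in 0.581% of the most abundant pollen genes, 42.3% of those of root and 85.3% of those of leaf.

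**Figure D4:**
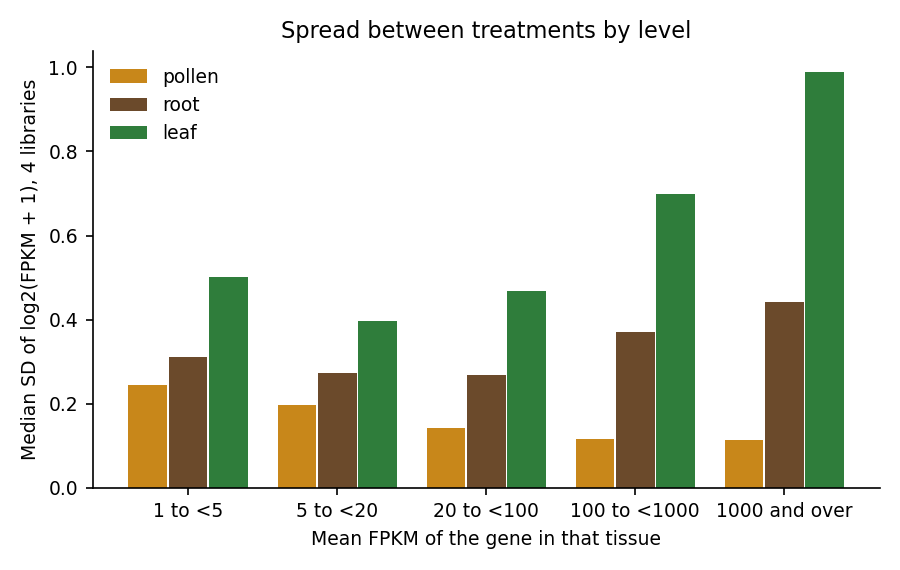
Median SD of log2(FPKM + 1) over the 4 treatments (vertical axis) for genes binned by their mean FPKM in pollen, root or leaf (horizontal axis), 1 bar for each organ and bin. Pollen bars fall from 0.244 to 0.113 as the level rises, while the bars for 1000 FPKM and over reach 0.441 in root and 0.990 in leaf.

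Within pollen, the control library was the narrowest and least even of the 4. All 3 copper libraries had more genes at 1 FPKM than the control, by 658 under nanoparticles, 1137 under bulk CuO and 1260 under CuSO4. Because each difference is taken from the same control library, 1 low library and 3 high ones cannot be told apart. In leaf the same differences were -14, 1267 and 558 genes, and in root 317, 123 and -14. The coefficient of variation of breadth over the 4 pollen libraries was 5.35% at 0.1 FPKM, 5.16% at 1 FPKM, 3.55% at 5 FPKM, 3.14% at 10 FPKM, 1.86% at 100 FPKM and 3.22% at 1000 FPKM. Relative depth was 0.648 in the control, 0.662 under nanoparticles, 0.637 under bulk CuO and 0.745 under CuSO4, which was highest in depth and in breadth. With equal reads per kilobase the counts were 10355, 11077, 11446 and 12129 genes. That setting gave the deepest library, CuSO4, the lowest threshold (0.856 FPKM, against 0.963 to 1 FPKM in the others). Its first place there is therefore no check on depth.

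The genes behind the wider copper libraries were faint, which follows in part from how they were picked. Each had to lie below 1 FPKM in control pollen. Under CuSO4, 1804 genes reached 1 FPKM that were below it in control pollen and 544 went the other way. The 1804 genes had a median of 0.465 FPKM in the control and 1.55 FPKM under CuSO4, and 143 reached 5 FPKM. They held 0.803% of that library's summed FPKM. Under bulk CuO 1755 genes were gained and 618 lost, with medians of 0.476 and 1.51 FPKM for the gained genes, and under nanoparticles 1071 were gained and 413 lost. Of the gained genes 81.5% (CuSO4), 82.4% (bulk CuO) and 75.4% (nanoparticles) were present in all 8 vegetative libraries. Of the lost genes 61.9%, 59.9% and 62.2% were, in the same order. The share was 77.8% to 78.3% of genes present in both pollen libraries of each comparison and 59.0% of all genes. Of the genes with a pollen mean of 1 to 5 FPKM, 4497 of 5551 were present in all 8 vegetative libraries. That is about the share of the genes gained under CuSO4 and bulk CuO, and above that under nanoparticles. The 6490 genes present in all 8 vegetative libraries and in no pollen library held 0.133% of summed FPKM in control pollen, 0.170% under nanoparticles, 0.228% under bulk CuO and 0.235% under CuSO4. Among genes under 5 FPKM in every pollen library, 810 that leaf held at 20 FPKM or more and at least 10 times above root summed to 419, 463, 459 and 491 FPKM in the same order. For 490 such genes of root the sums were 178, 180, 209 and 221 FPKM. The part of vegetative RNA in pollen breadth was not tested.

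The contrast with the vegetative organs can be taken in each treatment by itself. With 1 pollen library set against the mean of its root and leaf libraries, 2641 (bulk CuO) to 2867 (CuSO4) genes were higher by at least 1 on the log2 scale, and 15814 (nanoparticles) to 16579 (bulk CuO) were lower. Of the 23751 genes tested, 2242 were higher and 13990 lower by at least 1 in all 4 treatments. The difference in effective number was -5039 genes in the control, -4879 under nanoparticles, -5066 under bulk CuO and -4210 under CuSO4. It was smallest in size under CuSO4, as were the gap in breadth and the excess of the leading 100 genes (14.6 percentage points, against 21.5 in the control). Root and leaf values moved with it: CuSO4 had the lowest effective number in both organs, 5955 in root and 5032 in leaf, and the highest in pollen.

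**Figure D5:**
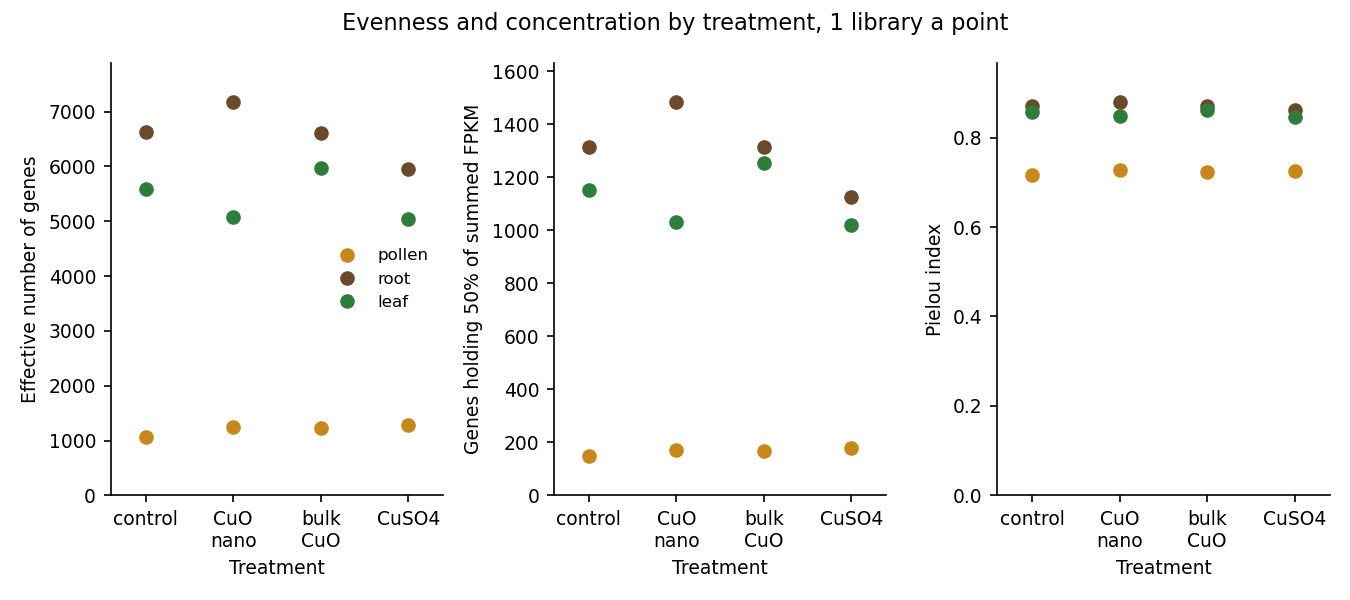
Effective number of genes, number of genes holding 50% of summed FPKM, and Pielou index (vertical axes, all starting at 0) by treatment, 1 point a library, coloured by organ. Pollen stays at 1070 to 1284 effective genes in all 4 treatments, below the lowest vegetative library at 5032.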

How the data were processed

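Messenger RNA libraries of root, leaf and pollen were made with a strand-specific TruSeq kit and read as single reads of 75 bases, per the labels' protocols. The authors deposited 1 table of FPKM values, 1 column a library. STAR with a cucurbit reference transcriptome is named in the series' design text, and cutadapt and StringTie in the submitters' processing notes; their versions are not given here. The deposited FPKM values hold no counts, so absolute depth is unknown and no counting interval is given. Relative depth was estimated from ratios of values between 0.05 and 1.5 FPKM, which cluster at fractions of small integers (up to 4); each library took the median over paths through all others. All 12 triples of libraries within an organ closed within 0.02 on the log2 scale, and 158 of all 220 did, so steps between organs are less sure.

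Genes were tested with limma 3.58.1 (R 4.3.3) on log2(FPKM + 1), which understates changes of low genes, with empirical Bayes moderation and a trend, root and leaf as 1 group and treatment as a block. Replicate numbers only name libraries, and treatment is what pairs them. Genes entered when their mean reached 1 FPKM in an organ. Measures of a whole library were compared by permuting organ labels within treatments (81 arrangements, two-sided), adjusted over 6 measures. The spread behind the limma p-values holds the difference between root and leaf, while treatment differences that the organs share are taken out. With the 3 organs kept separate, 18846 genes were called in place of 16998. No p-value rests on replicate libraries of 1 treatment in an organ. Library measures were computed in Python 3.11.15 (numpy 2.4.6, pandas 2.3.3) and plots drawn with matplotlib 3.10.9. Steps were tested on simulated data. Genes named are the 2 with the largest log2 difference and, for lower in pollen, the 2 with the highest vegetative mean, among called genes whose groups did not overlap, and the leading gene of each organ. The IDs matched 0 entries of the RefSeq gene table of assembly ASM280686v2, so marker lists of the organs were not used here. There were 140 sets of genes (292 genes) with the same values in every library, so single members of a set are uncertain. The comparison, measures and lists were chosen with earlier results of these data known.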

Additional observations from a re-analysis of the deposited data

Results flagged for a closer look

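For each of 2 measures of concentration, the copper libraries of pollen and of 1 vegetative organ lay on opposite sides of their controls, in root for one measure and in leaf for the other. These differences were not tested. The share of summed FPKM in the 10 leading genes was lower than the control under each of the 3 copper materials in pollen, by -0.67 percentage points on average, and higher under each in root, by 0.712 percentage points. In leaf this share differed by 1.28 under nanoparticles, -0.522 under bulk CuO and 0.920 under CuSO4. The share in the 100 leading genes was lower in all 3 copper libraries of pollen, by -3.11 percentage points on average, and higher in all 3 of leaf, by 2.31 percentage points. In root it differed by -0.818, -0.741 and 1.87 in the same order of materials, lower under 2 of 3 as in pollen. Each organ has 1 control library, on which all 3 of its differences rest.

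Cp4.1LG07g06470, the leading pollen gene, stood far from the other leaf libraries under nanoparticles, at 0.289 FPKM against at most 0.039 FPKM in the other 3. Cp4.1LG07g05480 was also highest in that leaf library, at 0.213 FPKM. The rule used for such gaps marks about 1 in 20 groups by chance where values follow a normal distribution, which was not checked for values this close to 0.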

How the results depend on the processing

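Scaling changed the number and balance of the 16998 gene calls. A median shift gave 11248 calls (8037 higher, 3211 lower), of which 2571 and 3211 were calls of the same direction on the first scale and 963 were opposite. Quantile normalization gave 10349 (5311 and 5038), of which 2538 and 5026 had the same direction and 112 were opposite. A minimum log2 difference of 2.3 gave 10486 (1621 and 8865). With no replicate block, that is without treatment in the model, 17596 genes were called (2615 and 14981), and leaving out the block changed no other call. Leaving out 1 library at a time gave 15762 to 17102 calls, 2444 to 2599 higher and 13221 to 14525 lower. Other pseudocounts, filters and models kept each count within 1.5 times. A pseudocount of 5 did so only just for lower genes, with 11692 calls (2063 and 9629). The log2 difference of Cp4.1LG09g03060 turned to 0.28 against root alone (limma adjusted p = 0.496) and was -12.06 against leaf alone (limma adjusted p = 2.20e-05). Breadth turned in sign at 100 FPKM (38.6 genes) and 1000 FPKM (138 genes). Against 1 organ alone the smallest permutation p is 0.125, by the number of libraries: breadth differed by -9598 genes from root and -9070 from leaf, the leading 100 by 21.0 and 15.5 percentage points, the genes for 50% by -1142 and -946.5, the effective number by -5387 and -4211, and the Pielou index by -0.148 and -0.131. The share of the leading 10 passed its test only without the 10 leading genes, at 2.73 percentage points of the remaining FPKM. Leaving out 1 library moved breadth between -9499 and -9079 genes, the leading 10 between 1.56 and 2.22 and the leading 100 between 17.5 and 19.0 percentage points, the genes for 50% between -1072 and -1005, the effective number between -4938 and -4632 and the Pielou index between -0.142 and -0.137. The spread between treatments in pollen was 0.133 for genes of at least 20 FPKM in every organ, and without 1 treatment at a time it was 0.138 to 0.162 in pollen, 0.189 to 0.241 in root and 0.318 to 0.394 in leaf. Faint genes of pollen limit breadth: with unknown read totals, genes near 1 FPKM cannot be given a counting error.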

Other observations

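Some genes were shared by pollen with 1 vegetative organ. At 1 FPKM, 104 genes were present in all 4 pollen and all 4 root libraries and in no leaf library, and 75 in all pollen and all leaf libraries and in no root library. The 104 genes held 2.02% of summed FPKM in control pollen, 1.86% under nanoparticles, 1.55% under bulk CuO and 1.54% under CuSO4, and 0.107% to 0.159% in root. The 75 genes held 0.547% to 0.603% in pollen and 0.447% to 0.734% in leaf. The 104 genes therefore had a larger share in pollen than in root, while the 75 genes had like shares in pollen and leaf. Genes called higher in pollen were found under all 21 prefixes of the IDs, LG00 to LG20. They made up 8.27% (LG06) to 13.4% (LG19) of the genes tested, with 10.9% as the median prefix. Genes called lower made up 54.9% (LG00) to 63.7% (LG13).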
